A study of Homo sapiens with 12 samples.

Results

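The m6A writer complex genes are METTL3, METTL14, WTAP, VIRMA, ZC3H13, RBM15, RBM15B and CBLL1, 8 of the 10992 genes that carried an ac4C peak in any of the 4 peak lists analysed. All listed peaks with one of these symbols were taken, 171 of 140401, and none of the 8 genes was without a peak. N4-acetylcytidine (ac4C) is a modified cytidine that the acetyltransferase NAT10 writes into RNA, and ac4C-RIP-seq sequences RNA fragments captured by an antibody to it. The knockdown group was the human embryonic stem cell line H1, transduced with a lentivirus carrying GFP and a short hairpin RNA against NAT10 (shNAT10), kept for 48 h, enriched for GFP and then expanded with 0.5 ug/ml puromycin in TeSR-E8, a medium other than the PGM1 named for growing the line. The wild-type group was H1 with no transduction named and no control hairpin, so loss of NAT10, the virus, the selection and the medium cannot be told apart. Each group had 2 immunoprecipitation libraries, numbered replicate 1 and replicate 2, each with a peak list of its own.

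The complex installs N6-methyladenosine (m6A) on nascent mRNA. METTL3 is the catalytic subunit, METTL14 its RNA-binding partner, and WTAP the adaptor that carries the pair to nuclear speckles. VIRMA, ZC3H13, the paralogues RBM15 and RBM15B, and the RING-finger protein CBLL1 (HAKAI) belong to the associated regulatory part, in which the RBM15 proteins bind RNA and VIRMA is a scaffold. In embryonic stem cells m6A is known for its part in the turnover of transcripts of pluripotency genes. The peaks described here are on the RNAs of these genes, not on the RNAs that the complex methylates.

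The lists held 27787 and 36476 peaks in knockdown replicates 1 and 2, against 37988 and 38150 in wild type. Read depth is unknown, and the lists give no RNA level, so less acetylation of an RNA and less of the RNA cannot be told apart. The score of a peak is the authors' and ranks peaks only within a list. It is given here also as a percentile, its rank within the list scaled to 100, with 100 at the strongest score. NAT10 itself had 0 and 0 peaks in the knockdown lists, against 7 and 9 in wild type. Where NAT10 is due, the numbering of peaks skips 3 and 4 numbers in the knockdown lists, against 3 and 5 in wild type. Other genes of the lists due there numbered 0 and 1 in knockdown, against 2 and 1 in wild type. Of the skipped numbers, 2 in wild-type replicate 2 stood between listed NAT10 peaks. Whether the others belonged to NAT10 was not settled. Of 8 stem cell marker genes, 5 and 7 carried a peak in the knockdown lists, against 8 and 7 in wild type. Peak numbers were lower in either knockdown list than in either wild-type list for 4 of these 8 (POU5F1, LIN28A, LIN28B and DNMT3B), higher for 1 (TDGF1), and overlapped for 3 (SOX2, NANOG and SALL4). None of 8 markers of ectoderm, mesoderm, endoderm and trophectoderm carried a peak in any list. All positions refer to hg38 and count the first base as 1.

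No genome sequence was used here, and RefSeq promoter windows, which run from 250 bases before to 50 bases after a gene's start, covered 7 of the 8 genes in 8 windows. A peak stretch of at least 25 nt lay in such a window for 3 genes, and these are shown as the only peak sequence next to a start of these RNAs that could be read. The first 25 bases of each stretch are given 5′ to 3′ on the RNA strand (GRCh38.p14, RefSeq), with cytidines, the base that is acetylated, in capitals. The CBLL1 stretch is the whole first peak of knockdown replicate 2 (chr7:107744146-107744170, plus strand), the METTL14 stretch the start of the first peak of knockdown replicate 1 (chr4:118685417-118685441, plus strand), and the WTAP stretch the start of a 197 nt peak of wild-type replicate 2 that ended at the later of the gene's RefSeq starts (chr6:159727310-159727334, plus strand).
CBLL1: tgCtCtgCgagCCgaatCatggatC
METTL14: ggataCtCtgttCgtaagCtCCCgg
WTAP: CCaCgCCtgaaaggCgaCtCtCCtg
CBLL1 and METTL14 held 7 cytidines in these 25 bases and WTAP 10. None held, on the RNA strand, a run of 4 cytidines each followed by any 2 bases, which 12.2% of the 3679 such stretches of all genes held in their first 25 bases. The cytidine share was 28% in CBLL1, 28% in METTL14 and 25.4% over all 197 bases in WTAP, against a median of 28% over all genes, and the middle 50% of all stretches ran from 21.9 to 35%.

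Summed over the 8 genes, the knockdown lists held fewer peaks. There were 30 and 33 peaks in the knockdown libraries, against 59 and 49 in wild type, so the groups did not overlap. The means were 31.5 ± 2.12 in knockdown and 54 ± 7.07 in wild type (SD, n = 2 each), a ratio of 0.583 (two-sided exact permutation p = 0.333, and no smaller p exists for 2 libraries a group). The ratio over all peaks of the lists was 0.844. Per 10000 peaks of a list the 8 genes had 10.8 and 9.05 in knockdown, against 15.5 and 12.8 in wild type, a ratio of 0.699 (exact permutation p = 0.333). Nothing in the labels says that replicates were separate cultures, so these p-values measure only the spread between these libraries, which may be technical.

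**Figure D1:**
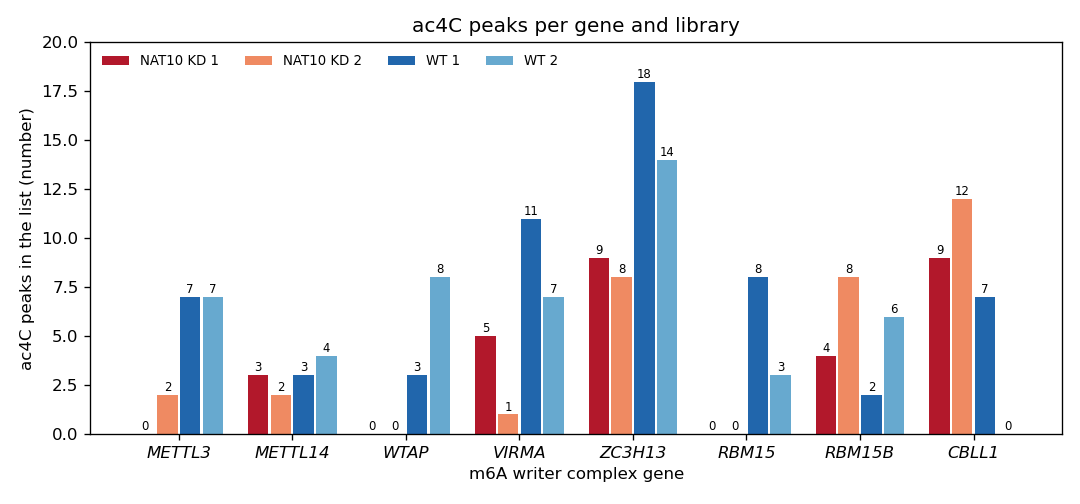
Number of ac4C peaks (vertical axis) listed for each of the 8 genes in the 2 NAT10 knockdown libraries (red and orange) and the 2 wild-type libraries (dark and light blue), 1 bar per library with its value above it. METTL3, WTAP, VIRMA, ZC3H13 and RBM15 have fewer peaks in either knockdown library than in either wild-type library, and CBLL1 has more.

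In 5 of the 8 genes (62.5%), METTL3, WTAP, VIRMA, ZC3H13 and RBM15, either knockdown list held fewer peaks than either wild-type list. Among the 7666 genes found in both libraries of at least 1 genotype, 32.0% did so. Only CBLL1, 1 of the 8, held more in either knockdown list, as did 23.8% of those genes. METTL14 and RBM15B overlapped between the genotypes. The median difference, knockdown minus wild type, was -5.5 peaks per gene for the 8 genes, against -0.5 for the 7666 genes. The 7666 genes were not matched to the 8 by number of peaks, which limits how large such a difference can be. No gene can pass a threshold of 0.05 with 2 libraries a group, and the exact permutation p of each of the 6 genes without overlap was 0.333, the smallest possible. All 8 genes were read from the same 4 lists and are not independent of each other.

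METTL3, the methyltransferase itself, lies on the minus strand of chromosome 14 (ENSG00000165819, RefSeq span 21498138 to 21511340). It carried 0 and 2 peaks in the knockdown lists, against 7 and 7 in wild type. The knockdown peaks were both in replicate 2. One of them, at 21510964 to 21511256, lay near the 5′ end of the gene and had no counterpart in wild type, and the other, at 21503820 to 21503894, overlapped a peak of each wild-type list. The remaining wild-type peaks had no knockdown counterpart. Lost regions, those with a peak in both wild-type libraries and none in knockdown, numbered 3. The region at 21503520 to 21503594 scored 13.9 and 32.4 in wild-type replicates 1 and 2, at percentiles 61.2 and 91.4. The region at 21503170 to 21503319 scored 15.2 and 17.8, at percentiles 69.8 and 69.7. These regions are narrow, 75 and 150 nt, and stood at a middle or high rank in both wild-type lists. The third, at 21501820 to 21502394, scored 26.0 and 11.3, at percentiles 93.7 and 20.5, so the wild-type libraries disagreed on its rank. Of the 16 METTL3 peaks, 1 in wild-type replicate 1 lay where the gene TOX4, whose peaks are on the other strand, overlaps the 3′ end of METTL3. A TOX4 peak of the same list overlapped that METTL3 peak.

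METTL14, the RNA-binding partner of METTL3, lies on the plus strand of chromosome 4 (ENSG00000145388, 118685392 to 118715430). It had a similar number of peaks in all lists, 3 and 2 in knockdown, against 3 and 4 in wild type, which overlap (exact permutation p = 0.667). What differed was where they lay. The last base of any knockdown peak stood 4054 nt downstream of the RefSeq 5′ end in replicate 1 and 6610 nt in replicate 2. Wild-type peaks began 6611 nt from the 5′ end in replicate 1 and 4005 nt in replicate 2, and reached 24778 and 28928 nt. The median peak midpoint lay at 6.40 and 16.9% of the gene's length in knockdown, against 64.7 and 69.1% in wild type. Midpoints of single peaks ran from 0.331 to 21.4% in knockdown, against 17.8 to 96.0% in wild type, so the knockdown peaks lay near the 5′ end. Those of knockdown replicate 1 lay almost wholly before any wild-type peak. Only the last of them, ending at 118689446, reached a wild-type peak, that of replicate 2 beginning at 118689397. A shift of this direction without overlap of the groups occurred in 35.9% of the 3504 genes with a peak in all 4 lists and a RefSeq span, and the opposite shift in 12.2%. It occurred in METTL14 and VIRMA, 2 of the 4 writer genes with a peak in all lists. The region at 118697350 to 118705719 was held by both wild-type lists, at scores 24.8 and 24.4 and percentiles 92.7 and 83.6, and by neither knockdown list. The region at 118686691 to 118697299 counts as held by all 4 lists, but the peak of wild-type replicate 1 in it, at 118692003 to 118697299, touches no knockdown peak and is joined to them only through wild-type replicate 2. The highest score of METTL14 was 22.1 and 17.0 in knockdown, at percentiles 81.8 and 77.5, against 24.8 and 41.7 in wild type, at percentiles 92.7 and 95.6. A lower top percentile in either knockdown list was found for METTL14 alone of the 4 writer genes with a peak in all lists, and for 22.7% of the 3553 such genes. A higher one was found for 0 of the 4, and for 23.6% of those genes.

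WTAP, the adaptor of the catalytic pair, lies on the plus strand of chromosome 6 (ENSG00000146457, 159726693 to 159756319). It had 0 and 0 peaks in the knockdown lists, against 3 and 8 in wild type. It held the highest-ranked peak of any of the 8 genes, at 159736711 to 159739031 in wild-type replicate 2, with a score of 98.1 and percentile 99.6. The overlapping peak of wild-type replicate 1 ran from 159736711 to 159741603, began at the same base, and scored 18.2 at percentile 81.7. A narrow peak just before it, at 159736261 to 159736310, was listed in both wild-type libraries, at scores 15.3 and 14.2. The other 6 WTAP peaks of replicate 2 and the other 1 of replicate 1 had no partner in the other wild-type list, and 1 of them, at 159726135 to 159726284, lay before the RefSeq start of the gene. The difference was -5.5 peaks, and it was -8 leaving out wild-type replicate 1 and -3 leaving out replicate 2 of wild type. All 11 WTAP peaks lie inside the RefSeq span of SOD2, whose peaks are on the opposite strand. SOD2 had 5 and 5 peaks in the knockdown lists, against 7 and 3 in wild type, and none overlapped a WTAP peak of the same list.

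VIRMA, the scaffold of the complex, lies on the minus strand of chromosome 8 (ENSG00000164944, 94487689 to 94553469). It carried 5 and 1 peaks in knockdown, against 11 and 7 in wild type. Peaks of the 5′ part were shared: the region at 94529082 to 94534904 was held by all 4 lists, with top percentiles of 34.5 and 85.3 in knockdown, against 21.0 and 27.7 in wild type. On its 5′ side knockdown replicate 1 held a peak at 94535005 to 94538282, at percentile 69.5, inside a longer peak of wild-type replicate 1. On its 3′ side the only knockdown peaks were 2 of replicate 1 near the 3′ end, at percentiles 38.2 and 11.2. The gap between the knockdown peaks ran from 24387 to 63378 nt from the 5′ end. It was defined by those peaks, so knockdown has none in it by construction, and wild type held 9 and 6 peaks there. The region at 94512439 to 94519154 was held by both wild-type lists, at scores 21.8 and 25.3 and percentiles 89.3 and 84.9, and by neither knockdown list. The peak of wild-type replicate 1 in it ended at 94517887 and that of replicate 2 began at 94517813. The wild-type lists thus shared only a short stretch of this region. The median midpoint was at 36.9 and 35.6% of the gene's length in knockdown, against 82.1 and 65.8% in wild type. The knockdown value of replicate 2 rests on its only peak.

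**Figure D2:**
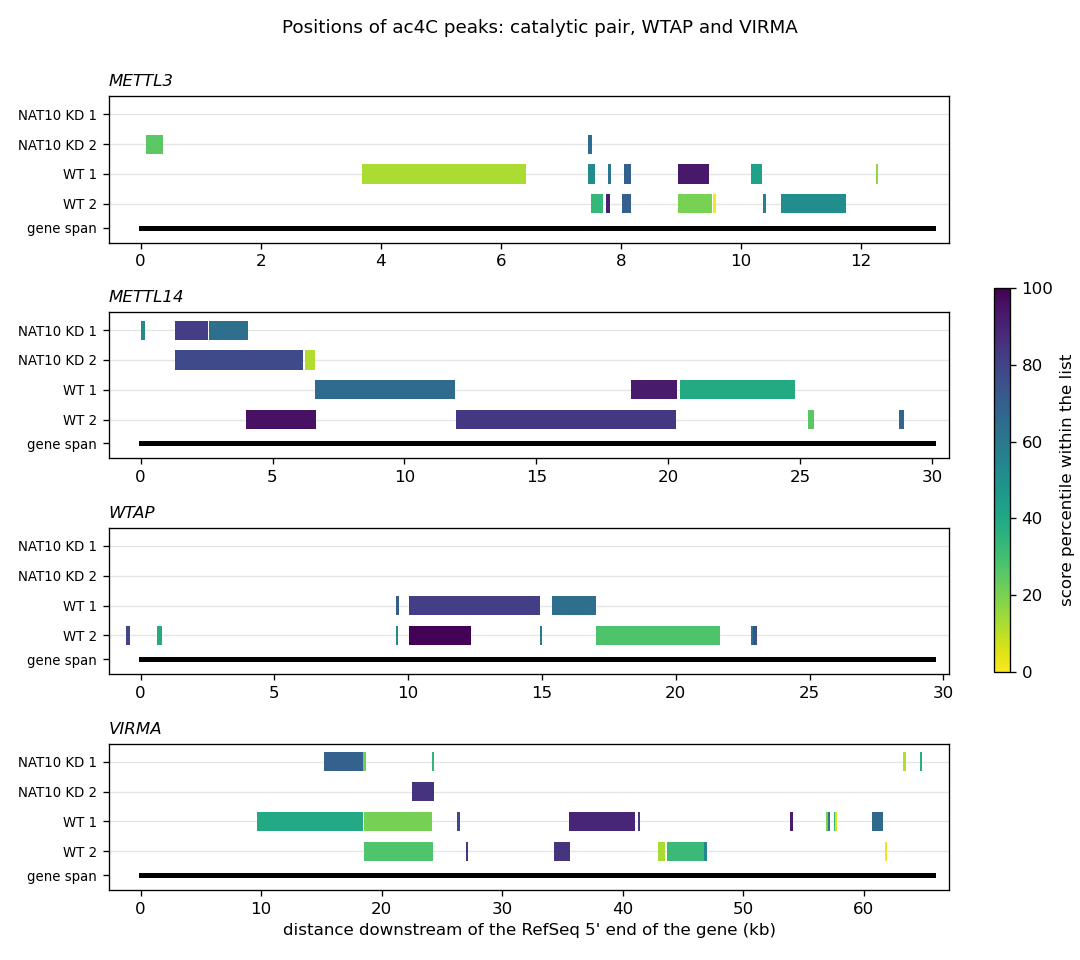
Positions of ac4C peaks on METTL3, METTL14, WTAP and VIRMA, as distance in kb downstream of the RefSeq 5′ end (horizontal axis), with 1 row per library, knockdown above wild type, and the gene span as a black line. Each bar is a peak, coloured by its score percentile within its list. Bars of METTL14 in the knockdown rows end by 6610 nt, while those of wild type reach 24778 and 28928 nt, and the WTAP knockdown rows are empty.

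ZC3H13, a zinc finger protein known from mouse embryonic stem cells to keep the complex in the nucleus, lies on the minus strand of chromosome 13 (ENSG00000123200, 45954465 to 46052746). Its peaks numbered 9 and 8 in knockdown, against 18 and 14 in wild type. The bases they covered ran the other way, 51401 and 46525 nt in knockdown, against 43236 and 31188 in wild type. Fewer peaks here thus did not mean less of the gene within a peak. Single spans of 30667 nt in replicate 1 and 30742 nt in replicate 2 made up most of the knockdown length. The higher covered length in knockdown rested on the 1 region that holds these spans. Covered length includes long spans that can hold introns. ZC3H13 held 3 of the 5 regions that were present in all 4 lists over the 8 genes. The widest of them, at 46011444 to 46042210, was 1 span of 30667 nt in knockdown replicate 1 and 30742 nt in knockdown replicate 2. The longest peak in it was 21649 nt in wild-type replicate 1 and 9018 nt in wild-type replicate 2. These wild-type peaks did not touch, and replicate 2 overlapped that of replicate 1 only with a 25 nt peak at percentile 3.94. The narrowest region, at 45969656 to 45969955, stood at percentiles 7.76 and 55.8 in knockdown, against 52.0 and 79.9 in wild type. The third region, at 46003197 to 46010159, stood at percentiles 61.2 and 11.7 in knockdown, against 75.4 and 95.1 in wild type. Knockdown replicate 2 held only a 25 nt peak there. In the narrowest and the third region the peaks of the knockdown lists did not overlap each other and were joined only through wild-type peaks. The highest score of the gene was 15.01 and 46.0 in knockdown, at percentiles 61.2 and 96.2, against 22.9 and 39.8 in wild type, at percentiles 90.7 and 95.1, and the groups overlapped. Lost regions lay at 45985629 to 45988828 and at 46010335 to 46010434, with percentiles of 90.7 and 54.3 and of 72.4 and 49.1 in the wild-type lists.

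RBM15 and RBM15B are paralogous RNA-binding proteins that recruit the writer to its sites, and whether their RNAs differ from each other was not tested. RBM15, on the plus strand of chromosome 1 (ENSG00000162775, 110339377 to 110346677), had 0 and 0 peaks in knockdown, against 8 and 3 in wild type. RBM15B, on the plus strand of chromosome 3 (ENSG00000259956, 51391285 to 51397908), had 4 and 8 peaks in knockdown, against 2 and 6 in wild type, and the groups overlapped (exact permutation p = 0.667). The RBM15 peak at 110342681 to 110345578 in wild-type replicate 2 scored 83.3, at percentile 99.4, and wild-type replicate 1 held no peak there. Replicate 1 instead held several narrow peaks to its 5′ side. The lists of wild type shared 2 RBM15 regions, at 110342131 to 110342355 with percentiles 73.4 and 25.3, and at 110345629 to 110346386 with percentiles 75.04 and 83.0. Its difference was -5.5 peaks, and it was -3 leaving out wild-type replicate 1 and -8 leaving out replicate 2 of wild type. RBM15B had no peak of high rank in any list, its highest percentiles being 47.0 and 66.4 in knockdown, against 47.7 and 38.0 in wild type. Its span was covered in short pieces of 25 to 600 nt. A region at 51392810 to 51393534 was held by both knockdown lists, at percentiles 47.0 and 31.9, and by neither wild-type list. Another at 51394310 to 51394634 was held by both wild-type lists, at percentiles 31.0 and 36.7, and by neither knockdown list. The peak of wild-type replicate 1 in it ended at 51394509 and that of replicate 2 began at 51394435, so they overlapped only in part.

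CBLL1, the RING-finger subunit also named HAKAI, lies on the plus strand of chromosome 7 (ENSG00000105879, 107744142 to 107761667). It was the only one of the 8 genes with more peaks in either knockdown list than in either wild-type list. It carried 9 and 12 peaks in knockdown, against 7 and 0 in wild type (10.5 ± 2.12 against 3.5 ± 4.95, SD, n = 2 each, exact permutation p = 0.333). The wild-type libraries differed from each other by 7 peaks, as much as the group means did, and the difference was 3.5 leaving out wild-type replicate 2 and 10.5 leaving out replicate 1 of wild type. Of the 7666 genes above, 97.4% had a lower difference. Of its 21 knockdown peaks 11 lay below percentile 50, and the median percentile was 80.6 and 41.2 in knockdown, against 19.2 in wild-type replicate 1. The peak at 107744831 to 107749047 had the same start and end in both knockdown lists, with scores of 59.2 and 57.7 at percentiles 97.1 and 97.3. In wild-type replicate 1 only its last 100 nt were listed, from 107748948, with a score of 22.9 at percentile 90.7. The peak at 107752601 to 107753443 also had the same ends in both knockdown lists, with scores of 71.6 and 46.5 at percentiles 98.1 and 96.3, whereas the peak of wild-type replicate 1 there scored 10.9 at percentile 17.3. These were the only 2 intervals of the 8 genes that were identical in the knockdown lists. Over all genes 2653 intervals were, 8.26% of the peaks of those lists, against 6.35% for the 8 genes. The highest score of CBLL1, 111.3 at percentile 99.1, belonged to a 50 nt peak of knockdown replicate 1 at 107755461 to 107755510, inside a longer peak of knockdown replicate 2 that scored 13.8 at percentile 60.8.

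CBLL1 held 4 of the 5 gained regions of the 8 genes, at 107754177 to 107755510, 107758261 to 107758335, 107758361 to 107758785 and 107759286 to 107759460. The gene itself does not count as gained, because wild-type replicate 1 had peaks. The 3 peaks nearest its 3′ end, from 107759811 to 107761035, were in wild-type replicate 1 only. CBLL1-AS1, a long noncoding RNA gene, overlaps the first bases of CBLL1 and had no peak in any list. RefSeq lists the pseudogenes CBLL1P1, WTAPP1 and WTAPP2, which also had no peak, but how reads shared with such copies were assigned is not given in the sources used here.

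**Figure D3:**
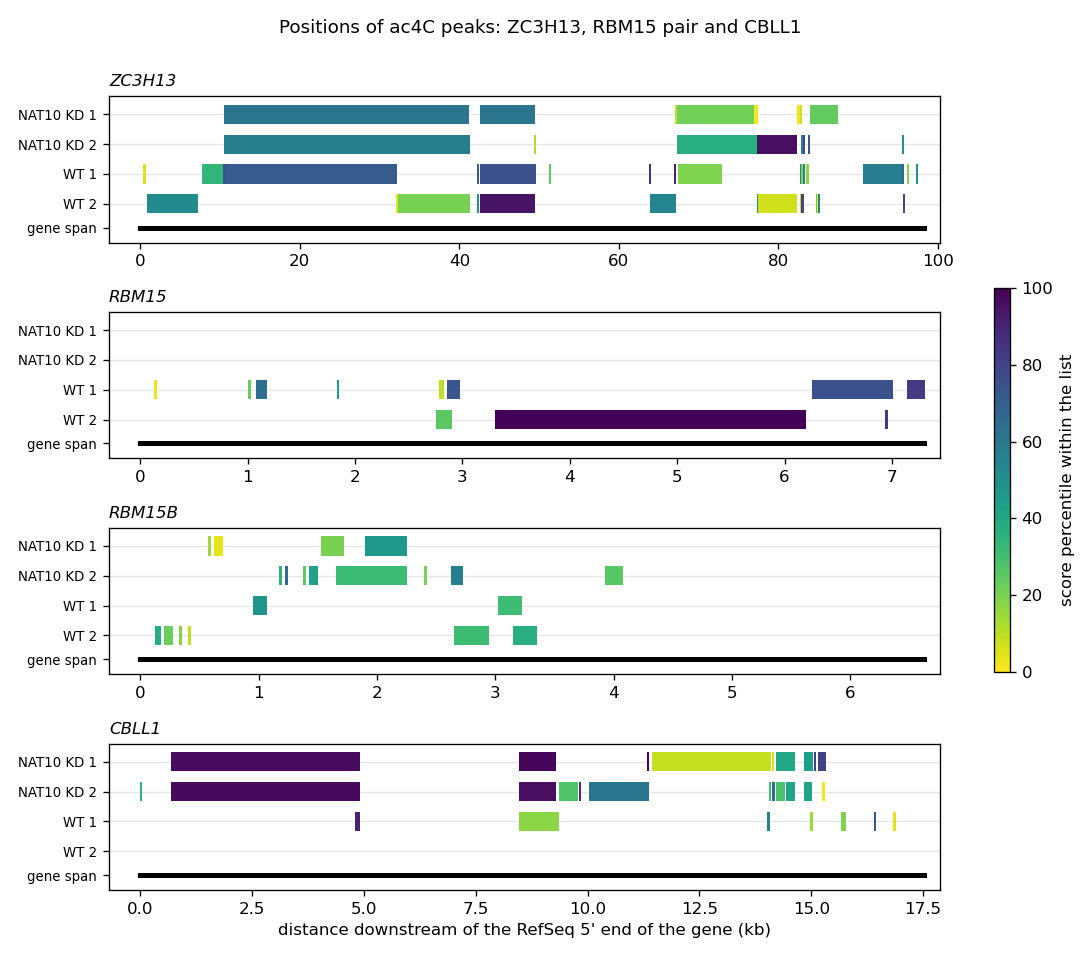
Positions of ac4C peaks on ZC3H13, RBM15, RBM15B and CBLL1, as distance in kb downstream of the RefSeq 5′ end (horizontal axis), with 1 row per library, knockdown above wild type, and the gene span as a black line. Each bar is a peak, coloured by its score percentile within its list. The RBM15 knockdown rows are empty, CBLL1 shows 2 peaks with the same ends at percentiles 96.3 to 98.1 in both knockdown rows, and its row for wild-type replicate 2 is empty.

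As whole genes, WTAP and RBM15 were lost, with peaks in each wild-type library and none in knockdown. They are 2 of the 7 writer genes found in each wild-type library, to be read against the 12.8% lost of 5607 such genes. The writer genes found in each knockdown library were METTL14, VIRMA, ZC3H13, RBM15B and CBLL1. None of them was gained (present in each knockdown library and absent from wild type). Of the 5612 genes found in each knockdown library 17.1% were gained, and so few writer genes cannot show a difference from that share. METTL14, VIRMA, ZC3H13 and RBM15B, 4 of the 8, had a peak in all 4 lists, against 32.3% of 10992 genes. METTL3 would join the lost genes without knockdown replicate 2, giving 3, and CBLL1 would be gained without wild-type replicate 1, giving 1.

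The lists number their peaks in the order of the Ensembl gene identifiers, and some numbers belong to no listed peak. At the place of WTAP 4 and 6 such unlisted numbers stood in the knockdown lists, with 0 and 1 other genes of the lists due there, against 0 and 0 in wild type. At the place of RBM15 there were 1 and 2 in knockdown, with 2 and 0 other genes due, against 3 and 2 in wild type, with 4 and 1 due. METTL3 had 1 and 0 in knockdown, with no other gene due, against 0 and 0 in wild type. A skipped number can belong to the gene or to a neighbour in the order, so whether a peak of these 3 genes was numbered and not listed was not settled. Unlisted numbers also stood between the listed peaks of ZC3H13, 0 and 2 in knockdown, against 3 and 3 in wild type, and of RBM15B, 1 in wild-type replicate 1. At the whole place of RBM15B there were 12 and 21 in knockdown, against 18 and 7 in wild type. These exceeded its listed peaks in every list. Other genes due there numbered 4 and 6 in knockdown, against 4 and 0 in wild type. Whether these numbers belonged to RBM15B was not settled. No number was missing at the place of CBLL1 in wild-type replicate 2, where it had 0 peaks.

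**Figure D4:**
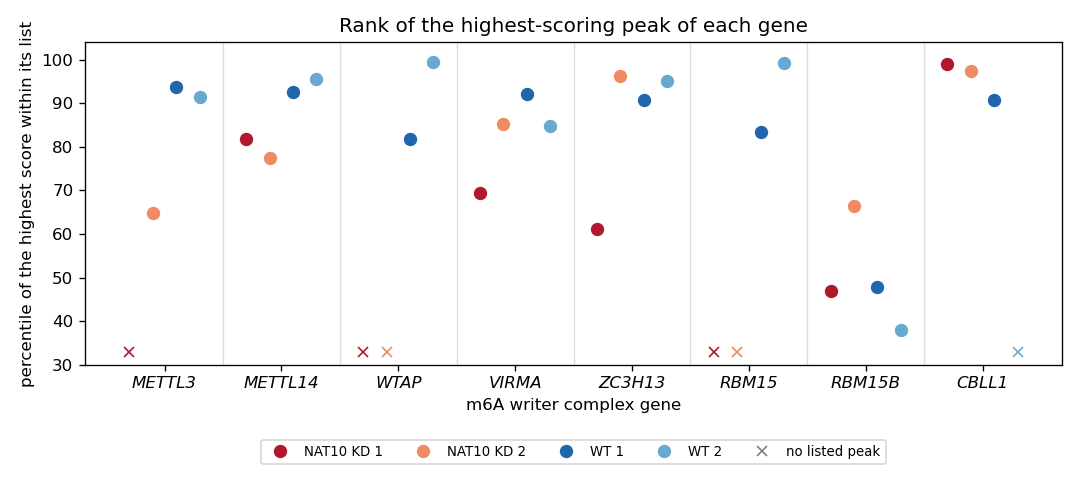
Percentile within its list of the highest-scoring peak (vertical axis, starting at 30) of each of the 8 genes, 1 dot per library, with knockdown (red and orange) left of wild type (dark and light blue) and a cross at the bottom where a library listed no peak. METTL14 lies lower in both knockdown libraries (81.8 and 77.5) than in wild type (92.7 and 95.6), CBLL1 lies highest in knockdown (99.1 and 97.3), and VIRMA, ZC3H13 and RBM15B overlap.

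Joining same-strand peaks that shared 1 bp or more gave 105 regions over the 8 genes. Peaks of a region can be joined only through another peak, so not all of them touch each other. Of these, 71 (67.6%) were in 1 list only, as were 69.1% of all 89916 regions, 18 of the 71 in a knockdown list and 53 in a wild-type list. Regions held by both wild-type lists numbered 19, and 12 of them (63.2%) were lost, against 52.2% over all regions. Regions held by both knockdown lists numbered 16, and 5 of them (31.2%) were gained, against 48.1%. A further 5 regions, in METTL14, VIRMA and ZC3H13, were held by all 4 lists, as were 3.40% of all regions. The lost regions lay in 7 of the 8 genes, 3 in METTL3, 2 each in WTAP, ZC3H13 and RBM15, and 1 each in METTL14, VIRMA and RBM15B, while CBLL1 had 0. These counts moved when 1 library was left out, which loosens the rule for lost, gained and kept. Fewer lists then have to hold or lack a peak, so the counts can only stay or rise. Shares over all regions under the looser rule are not given here. Lost regions came to 34 with wild-type replicate 2 as the only wild-type list and to 43 with wild-type replicate 1 as the only one. Gained regions came to 15 leaving out knockdown replicate 1, 13 leaving out knockdown replicate 2 and 10 leaving out wild-type replicate 1. Kept regions came to 10 leaving out wild-type replicate 2.

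Shares of overlapping peaks of the 8 genes were higher within a genotype than between genotypes, a difference that was not tested. Of the peaks of the knockdown lists 52.4% overlapped a peak of the other knockdown list, and of those of the wild-type lists 38.0% did so, while a knockdown and a wild-type list shared 20.3 to 26.8%. Over all peaks of the lists the same shares were 42.1% and 36.8% within genotypes and 22.8 to 24.4% between them. With spans of up to 1000 nt only, the 8 genes had 29.8 and 31.2% within genotypes and 3.57 to 18.3% between them, beside 31.5 and 28.3% within genotypes and 16.1 to 17.1% between them over all peaks.

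Peak width and rank over the 8 genes differed less clearly. The median span was 200 and 175 nt in knockdown, against 100 and 150 nt in wild type (exact permutation p = 0.333), and over all peaks it was 125 and 125 nt in knockdown and 125 and 150 nt in wild type. The mean score percentile was 40.1 and 49.7 in knockdown, against 50.3 and 47.7 in wild type, which overlap (exact permutation p = 0.667). The median score percentile was 36.4 and 42.5 in knockdown, against 54.8 and 50.6 in wild type, which do not overlap (exact permutation p = 0.333). The difference of -4.12 in mean percentile turned to 0.685 without knockdown replicate 1. Covered length was 67195 and 62702 nt in knockdown, against 89127 and 67094 in wild type, with overlap (exact permutation p = 0.667), and ZC3H13 made up most of it in knockdown. Peaks at percentile 90 or higher numbered 3 and 3 in knockdown, against 5 and 5 in wild type. As shares of the peaks of the 8 genes these were 10 and 9.09% in knockdown, against 8.47 and 10.2% in wild type, which overlap and lie near the 10% that a percentile gives over a whole list. Those of knockdown were all in CBLL1 except 1 of replicate 2 in ZC3H13.

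Other genes of the m6A pathway were counted from a list of 20: methyltransferases outside the complex, demethylases, readers and enzymes of methyl donor supply. All 20 had a peak in some list, and summed over them there were 61 and 91 peaks in knockdown, against 151 and 116 in wild type. Of the 16 found in each wild-type library 1 was lost, HNRNPA2B1, an RNA-binding protein proposed as a reader, with 0 and 0 peaks in knockdown, against 15 and 13 in wild type. None was gained and 13 had a peak in all 4 lists. Leaving out knockdown replicate 2 gave 3 lost genes, leaving out either wild-type replicate gave 2, and leaving out knockdown replicate 1 gave 1 gained gene. In 7 of these 16, either knockdown list held fewer peaks than either wild-type list, and in 0 more, to be read against the 32.0% and 23.8% above. Those 7 were METTL16, which methylates U6 snRNA, the demethylase ALKBH5, the readers YTHDF2, YTHDF3, IGF2BP3 and HNRNPA2B1, and MAT2A, which makes the methyl donor. IGF2BP3 had 3 and 5 peaks in knockdown, against 14 and 19 in wild type. The demethylase FTO had 3 and 8 in knockdown, against 8 and 2 in wild type, and overlapped.

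The numbers of peaks in the 4 lists were also set against those of every other gene, by the sum of absolute differences over the lists. WTAP had the same numbers as JPT1 and WNK3, and METTL14 the same as MED17 and MBOAT2. The nearest gene to VIRMA was KDM4A, at a sum of 1, to ZC3H13 TCF4, at 2, and to CBLL1 NFYC, at 2. RBM15 shared its numbers with 4 genes, METTL3 was nearest to 8 genes at a sum of 1, and RBM15B to 3 at 1.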

How the data were processed

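The 4 ac4C peak lists were analysed, and the other 8 libraries of the series (input and IgG control) were not used here. A list was matched to its immunoprecipitation library by the genotype and number in its name. Per the labels' protocols, total RNA was depleted of ribosomal RNA and fragmented to about 200 nt, and the library kit was directional; the labels also give the molecule as polyA RNA. The submitters' processing notes name build hg38 and the tools bedtools 2.30.0, SAMtools 1.12, HISAT2 2.2.1 and fastp 0.21.1. Which caller, threshold, control, annotation and counting strand made the peaks is not given in the sources used here. The score deposited by the authors for each peak has no stated meaning; it ran from 10, was infinite for 1 to 24 peaks a list and was used only for ranks. Starts were deposited counting from 0.

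Peaks were taken by symbol. Percentiles, region joining (overlap of at least 1 bp, same strand) and two-sided exact permutation tests over 2 against 2 libraries were computed with Python 3.11.15, pandas 2.3.3, NumPy 2.4.6 and SciPy 1.17.1, and the counting was tested on simulated lists. RefSeq spans (GRCh38.p14) gave gene positions; 98.2% of the peaks of matched symbols overlapped the span of their gene. Named genes were the 8 members, NAT10, lost or gained genes of the other m6A list, and up to 2 nearest genes; the further m6A genes with values were chosen after their values were seen. Members and lists were chosen with earlier results of these data known. Gene features could not be assigned without an exon annotation.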

Additional observations from a re-analysis of the deposited data

How the results depend on the processing

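The difference in summed peak number, knockdown minus wild type, was -22.5 and kept its direction under each alternative run: -15.5 with the stronger 50% of each list, -16.5 with spans up to 1000 nt, -4.27 per 10000 peaks of a list, -22.5 with peaks given to genes by position, and -27.5 to -17.5 leaving out 1 library. With the replicate number as a block it was -22.5 (exact permutation p = 0.5, the smallest possible), and the block left every gene's difference as it was; the numbers do not mark shared cultures in the labels, and deviations of same-numbered libraries correlated at 0.0152 over 10992 genes. With the stronger 50% of each list, the difference in mean percentile turned to 2.83 and that in covered length to 2717 nt, gained regions came to 2 and kept regions to 1. With spans up to 1000 nt, METTL14 differed by 0 peaks, kept genes came to 2 and kept regions to 1, and no METTL14 midpoint could be compared. Leaving out 1 library gave -8.93 to 0.685 for mean percentile, 0 to 4 for RBM15B, 12 to 43 lost, 6 to 15 gained and 5 to 10 kept regions, and 0 to 1 gained genes. Leaving out a list loosens the rule for lost, gained and kept, so those counts could then only stay or rise. The cause of the other moves was not tested. With overlap of at least 50% of the shorter peak there were 10 lost, 5 gained and 4 kept regions. The comparison of overlap with spans up to 1000 nt was chosen after seeing the data (within minus between genotypes, 19.1 percentage points, against 21.3). Depth is unknown, so no limit of detection can be given.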
